A study of Homo sapiens with 3 samples.

Results

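The mRNAs described here encode the core of the machines that fold and hold chromosomes. They are the 6 SMC (structural maintenance of chromosomes) genes SMC1A, SMC2, SMC3, SMC4, SMC5 and SMC6, the cohesin genes RAD21, STAG1 and STAG2, and NIPBL, which encodes the cohesin loader. They were chosen by gene name, with earlier results of these data known, and all 10 were found among the 57820 genes of both deposited tables. They were measured by RNA immunoprecipitation followed by sequencing in the human renal carcinoma cell line ACHN, which stably overexpressed MEX3A with a Flag tag. MEX3A is an RNA-binding protein with KH domains.

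The groups were an anti-Flag precipitate and, as background, a precipitate made with IgG, with 1 library each. Both came from cells carrying the same MEX3A-Flag construct, so neither group lacks the overexpressed protein. In both, the cells were fixed with 0.3% formaldehyde and treated with 0.125 M glycine. An input sample is named in the labels and was not analysed here. Counts summed to 5498124 with Flag and to 3412864 with IgG. As each group has 1 library, differences could not be checked against replicates and no p-value was computed, and every interval below covers counting error only.

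SMC proteins are long ATPases with coiled-coil arms that work in pairs. SMC1A and SMC3 form a ring with the kleisin subunit RAD21, to which STAG1 or STAG2 binds. This ring, cohesin, holds sister chromatids together and extrudes chromatin loops, and NIPBL loads it and drives its ATPase. SMC2 and SMC4 form condensin, which compacts mitotic chromosomes, and SMC5 and SMC6 form a complex of DNA repair and replication. STAG2 is a recurrent target of mutation in several human cancers.

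The mRNAs of these partners did not behave alike in the Flag library. Whether partners differ more than unrelated genes do was not tested. STAG2, SMC5 and RAD21 were higher with Flag than with IgG, SMC3 and SMC2 were lower, and the other 5 passed neither threshold. A gene was called enriched if the 95% exact counting interval of its ratio of Flag to IgG CPM (counts scaled to a common library total) was entirely above 2, and depleted if entirely below 0.5. By this rule 3 of the 10 mRNAs were enriched, against 28.7% of the 10811 genes that had 20 or more counts in the 2 libraries combined. Depletion was called for 2 of 10, against 1.32% of those genes. The share enriched is near the background share, and the depleted count rests on 2 genes. Both libraries are precipitates from the same cell line, so a ratio compares what Flag and IgG recovered, not expression between cells. The libraries are bulk, so neither gives the share of cells that held an mRNA. Without input, a ratio here also does not show how much of an mRNA the cells held. Over the 5982 genes with 100 or more counts, a minimum that all 10 mRNAs passed, 37.9% were enriched and 1.62% depleted.

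**Figure D1:**
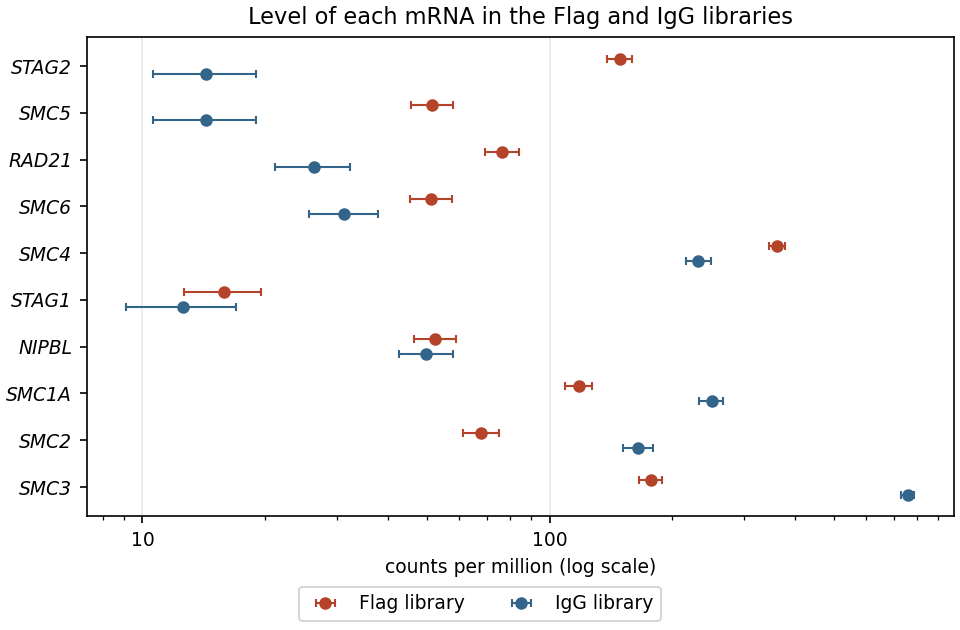
Level of the 10 mRNAs in the Flag library (red) and the IgG library (blue), in CPM on a log scale. Each point is 1 library and each bar its exact 95% Poisson interval. STAG2 and SMC3 stand furthest apart between the libraries, in opposite directions.

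Where the ratio 1 lies depends on which RNAs fill each library. The median ratio of all genes that entered was 1.93 (log2 0.95), and that of the 10 mRNAs was 1.40 (log2 0.49). TMM scaling, which sets the typical gene near 1, lowered every log2 ratio by 0.78 and median-of-ratios scaling lowered it by 0.79. With TMM scaling 1 of the 10 was enriched (12% of all genes, 1293) and 3 were depleted (6.12% of all genes, 662). Over all genes the corresponding numbers with total counts were 3100 and 143. Positions relative to the median gene do not depend on the scaling. By that measure 3 of the 10 lay above the median gene and 7 below it.

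STAG2, which encodes one of the interchangeable STAG subunits of cohesin, had 818 Flag and 49 IgG counts, or 148.8 CPM with Flag and 14.4 CPM with IgG. Its ratio was 10.4 (7.76 to 14.1), 5.38 times that of the median gene and at percentile 95.3 of all genes. It was the only one of the 10 that stayed enriched with TMM scaling, at a ratio of 6.04 (4.53 to 8.24). Its paralog STAG1 had 87 Flag and 43 IgG counts, or 15.8 CPM with Flag and 12.6 CPM with IgG. The STAG1 ratio of 1.26 (0.862 to 1.85) could not be told from 1 at this depth, and a small part of its counts was fractional, that is, divided with other genes. These paralogs fill the same place in the cohesin ring. STAG2 counts were 9.40 times STAG1 counts with Flag and 1.14 times with IgG, so the STAG2 ratio was 8.25 times the STAG1 ratio (5.02 to 13.5), or 4.77 times with TPM, which corrects for length.

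RAD21, the kleisin that closes the cohesin ring, had 420 Flag and 90 IgG counts. Its levels were 76.4 CPM with Flag and 26.4 CPM with IgG, and the ratio was 2.90 (2.30 to 3.68). Its ratio was 1.5 times that of the median gene, at percentile 66.3, inside the middle range of all genes. The call was lost with TMM scaling (1.69) and with totals that leave out mitochondrial and the 10 most abundant genes (2.30).

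SMC3, an ATPase subunit of the same ring, had 973 Flag and 2584 IgG counts. Its level was 177.0 CPM with Flag and 757.1 CPM with IgG, so that Flag was 4.28-fold below IgG (3.97 to 4.61). Only 76 genes had more IgG counts than SMC3, while 478 had more Flag counts. Its ratio of 0.234 was at percentile 0.61 of all genes, 8.24 times below the median gene. Low ratios were frequent among the 77 genes with at least as many IgG counts as SMC3, of which 48 were depleted, with a median log2 ratio of -1.64. Ranking by IgG counts itself favours low ratios.

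SMC1A, the partner of SMC3, had 648 Flag and 853 IgG counts, or 117.9 CPM with Flag and 249.9 CPM with IgG. Its ratio of 0.472 (0.425 to 0.523) had an interval that crossed 0.5, so it was not called. It was depleted with TMM scaling (0.275), with median-of-ratios scaling (0.273) and with totals that leave out mitochondrial and the 10 most abundant genes (0.375). TPM moved it the other way, to 0.688 and 0.685 at pseudocounts of 1 and 0.1, neither of which was called. SMC1A and SMC3 both lay among the lowest ratios of all genes, at percentiles 3.74 and 0.61, yet they differed beyond counting error. The SMC1A ratio was 2.02 times that of SMC3 (1.77 to 2.29), and the RAD21 ratio 12.4 times (9.72 to 15.9).

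NIPBL, the loader, had 288 Flag and 170 IgG counts, or 52.4 CPM with Flag and 49.8 CPM with IgG. Its ratio was 1.05 (0.867 to 1.28), which could not be told from 1 at this depth and lay below the median gene, at percentile 24.1.

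**Figure D2:**
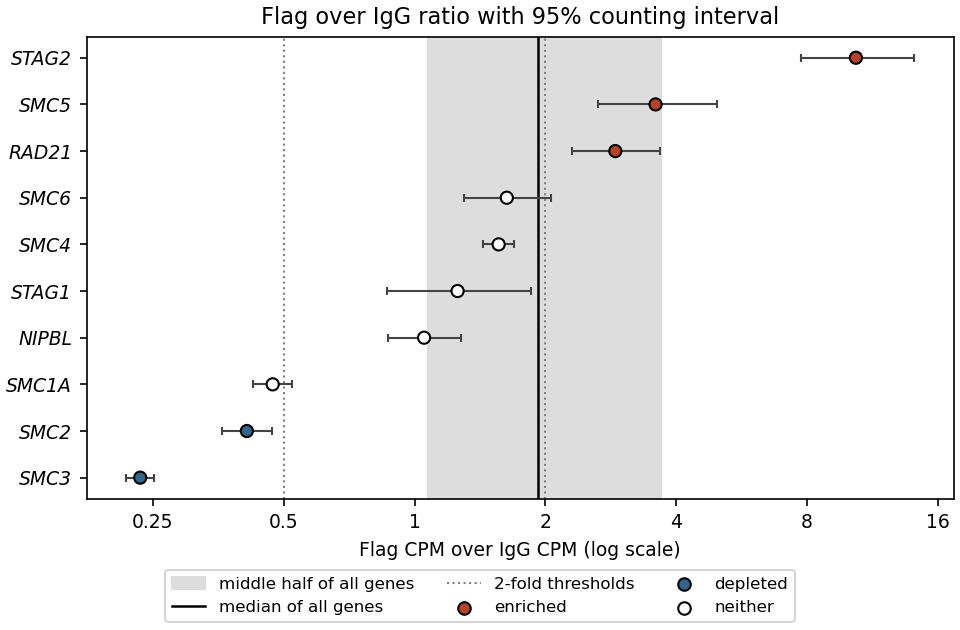
Ratio of Flag CPM to IgG CPM for the 10 mRNAs on a log scale, with exact 95% counting intervals. The black line is the median of all genes that entered (1.93), the grey band spans the quartiles of all genes, and dotted lines mark ratios of 2 and 0.5. The cohesin members STAG2 and SMC3 are the highest and the lowest of the 10.

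The condensin pair was split as well. SMC2 had 373 Flag and 563 IgG counts, or 67.8 CPM with Flag and 165.0 CPM with IgG, so that Flag was 2.43-fold below IgG (2.13 to 2.78). SMC4, its partner, had the most Flag counts of the 10, with 1992 Flag and 792 IgG counts. Its levels were 362.3 CPM with Flag and 232.1 CPM with IgG. The SMC4 ratio of 1.56 (1.44 to 1.70) was above 1 beyond counting error and below the threshold of 2, and with TMM scaling it was 0.910. The SMC4 ratio was 3.80 times that of SMC2 (3.24 to 4.44), or 4.2 times with TPM, a comparison that no scaling of the libraries can alter.

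The SMC5/6 pair also differed. SMC5 had 283 Flag and 49 IgG counts, or 51.5 CPM with Flag and 14.4 CPM with IgG. Its ratio was 3.59 (2.64 to 4.96), at percentile 74.1, and the call was lost with TMM scaling (2.09). SMC6 had 281 Flag and 107 IgG counts, or 51.1 CPM with Flag and 31.4 CPM with IgG. Its ratio was 1.63 (1.30 to 2.06), and with TMM scaling it was 0.95. SMC5 counts were 1.01 times SMC6 counts with Flag and 0.458 times with IgG, and so the SMC5 ratio was 2.20 times the SMC6 ratio (1.49 to 3.28). These comparisons of partners, 6 in all with that of STAG2 and RAD21 (3.58 times, 2.44 to 5.28, and 6.83 times with TPM), were chosen after the values were seen. The log2 ratios of all genes that entered had an SD of 1.33, and differences between unrelated genes were not computed.

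Together the 10 mRNAs made up 6163 Flag and 5300 IgG counts, a ratio of 0.722 (0.696 to 0.749). That sum mainly follows SMC3, which held 15.8% of the Flag counts of the 10 and 48.8% of their IgG counts. Without SMC3 the sum gave a ratio of 1.19 (1.13 to 1.24). SMC4 pulled the sum the other way, with 32.3% of the Flag counts of the 10 and 14.9% of the IgG counts. Without SMC4 the ratio was 0.574 (0.551 to 0.599). STAG2 differed in the same direction as SMC4, with 13.3% of the Flag counts of the 10 and 0.925% of the IgG counts. The highest ratio of the 10 was 44.3 times the lowest. The SD of the log2 ratios was 1.62 among the 10, against 1.27 among the genes with at least 100 counts. The 10 had 130 to 3557 counts each over both libraries.

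Levels between genes can be set side by side only per length, for which the authors' TPM (counts over effective length, summing to the same total in each library) was used. In the Flag library the order was SMC4 (194.0 TPM), STAG2 (122.5), SMC1A (62.5), RAD21 (47.0), SMC3 (44.6), SMC2 (16.6), SMC6 (12.1), NIPBL (10.2), STAG1 (9.68) and SMC5 (8.89 TPM). RAD21 and SMC3 could not be ordered beyond counting error, nor could neighbours among the last 4, from SMC6 to SMC5. In the IgG library the order was SMC3 (190.8 TPM), SMC4 (122.3), SMC1A (91.4), SMC2 (44.1), NIPBL (20.3), RAD21 (20.1), SMC6 (8.36), STAG2 (7.67), STAG1 (2.89) and SMC5 (2.48 TPM). There the neighbours NIPBL and RAD21, SMC6 and STAG2, and STAG1 and SMC5 could not be ordered. The intervals behind both orders take the deposited lengths as exact. With IgG, STAG2 and STAG1 had 49 and 43 counts and lengths of 2041 and 4471 bases, so their order there rests on length. The order of the cohesin mRNAs thus differed between the libraries, while SMC4 was above SMC2 in both. SMC3 had 0.949 times the TPM of RAD21 with Flag, where the pair could not be ordered, and 9.49 times with IgG. STAG2 was 2.61 times RAD21 by TPM with Flag and 0.381 times with IgG. For SMC4 over SMC2 the TPM quotient was 11.7 with Flag and 2.77 with IgG.

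The deposited length of a gene, which for RSEM output is a mean over its transcripts weighted by their estimated abundance, differed between the libraries for some of the 10. NIPBL had a length of 5274 bases with Flag and 2622 with IgG. STAG1 differed the other way, with 1806 bases with Flag and 4471 with IgG. STAG2 had 1389 bases with Flag and 2041 with IgG, and SMC1A 2053 with Flag and 2895 with IgG. In log2 terms the effective length of these 4 differed by over 0.5 between the libraries, as it did for 32.3% of all genes that entered. SMC3 (4114 bases) and SMC5 (5921 bases) had the same length in both libraries.

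These lengths enter the TPM and so move its ratios. The TPM ratio was 0.504 for NIPBL and 3.35 for STAG1, where counts gave 1.05 and 1.26. For STAG2 it was 15.97 and for SMC1A 0.684, so that STAG2 was highest by either measure. The remaining 6 had TPM ratios close to those of counts, namely 0.234 for SMC3, 0.377 for SMC2, 1.44 for SMC6, 1.59 for SMC4, 2.34 for RAD21 and 3.58 for SMC5. With TPM and a pseudocount of 0.1 or 1, STAG1 was past 2-fold and NIPBL was below 1. The abundance of single transcripts was not used here, and with 43 to 170 IgG counts the lengths of STAG1, STAG2 and NIPBL in that library rest on few reads.

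**Figure D3:**
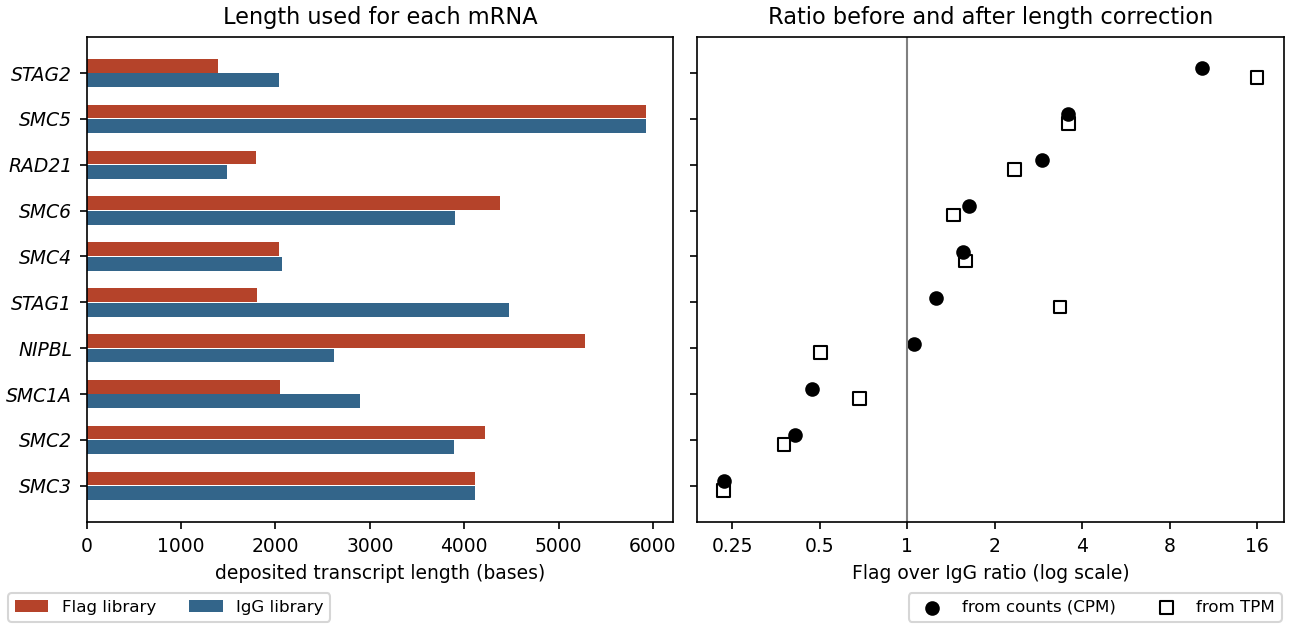
Left, deposited transcript length in bases of the 10 mRNAs in the Flag library (red) and the IgG library (blue). Right, ratio of Flag to IgG from counts (filled circles) and from TPM (open squares) on a log scale. The ratios part most for STAG1 and NIPBL, whose lengths differ most between the libraries.

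Rows with names that extend those of the 10 held few counts. SMC5-AS1, listed as antisense, had 1 Flag count and 6 IgG counts. RAD21-AS1 had no count in either library, a limit of 0.546 CPM with Flag and 0.879 CPM with IgG. The germline kleisin gene RAD21L1 had 1 Flag count and 2 IgG counts. The sources used here do not give the strand setting of the counting, so reads of SMC5 or RAD21 and those of their antisense rows cannot be told apart. Of the 10, SMC4 and STAG1 had fractional counts.

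Other genes of cohesin, most of them regulators, were described from a list of known members, also chosen with earlier results of these data known. Of 13 that entered out of 17 listed, 7 were called enriched and 0 depleted, against 28.7% and 1.32% of all genes. Entry was by counts summed over both libraries. Of the enriched genes, ESCO1, ESCO2, SGOL1 and HDAC8 had 17, 9, 11 and 4 IgG counts and reached the minimum of 20 only through Flag. An entry gained this way favours a call of enrichment, and the same entry rule applied to all genes. With TMM scaling 3 were enriched and 0 depleted, against 12% and 6.12% of all genes. The median log2 ratio was 1.76, against 0.95 for all genes. WAPAL, which encodes the release factor of cohesin, had 650 Flag and 90 IgG counts and a ratio of 4.48 (3.59 to 5.65). PDS5A, whose protein binds the ring with WAPAL's, had a ratio of 3.49 (2.75 to 4.48). The acetyltransferase genes ESCO1 and ESCO2, which lock cohesin by modifying SMC3, had ratios of 3.40 (2.01 to 6.08) and 4.83 (2.40 to 11.0). HDAC8, which encodes the enzyme that removes that mark, had 69 Flag and 4 IgG counts and a ratio of 10.7 (4.00 to 40.4).

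The shugoshin genes SGOL1 and SGOL2, which protect centromeric cohesin, had ratios of 7.67 (4.16 to 15.7) and 3.64 (2.42 to 5.64). At the low end were CDCA5, which encodes sororin, a protector of cohesin on replicated DNA, at 0.766 (0.537 to 1.09), and MAU2, the partner of NIPBL, at 0.973 (0.633 to 1.51). NIPBL and MAU2, the subunits of the loader, had ratios with overlapping intervals. The germline subunits STAG3, SMC1B, REC8 and RAD21L1 did not enter, with 17, 4, 4 and 1 Flag counts and 2, 0, 0 and 2 IgG counts. With TMM scaling WAPAL, SGOL1 and HDAC8 kept their calls.

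The 6 non-SMC subunits of the condensins all entered, with 1 enriched and 0 depleted, against 28.7% and 1.32% of all genes, and a median log2 ratio of 0.90. NCAPG2, a subunit of condensin II, had 672 Flag and 98 IgG counts and a ratio of 4.26 (3.44 to 5.32). Its call was kept with TMM scaling and lost with median-of-ratios scaling. NCAPD2, a subunit of condensin I, had a ratio of 2.12 (1.85 to 2.45), with fractional counts, and was not called. The lowest were the condensin II genes NCAPD3, with fractional counts, at 1.04 (0.760 to 1.43) and NCAPH2 at 1.2 (0.760 to 1.93). The ratio of SMC2, at 0.411 (0.360 to 0.470), had an interval below those of all 6, which share its complexes.

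Of the 7 listed partners of SMC5/6, 6 entered, 2 were called enriched and 0 depleted, with a median log2 ratio of 0.83. The shares of all genes were 28.7% and 1.32%, so 2 of 6 is near the background. With TMM scaling 1 was enriched, against 12% of all genes. The enriched ones were FAM178A and ANKRD32, the genes of the factors that bring SMC5/6 to sites of DNA damage, now called SLF2 and SLF1. FAM178A had 403 Flag and 55 IgG counts and a ratio of 4.55 (3.43 to 6.14). ANKRD32 had 45 Flag and 2 IgG counts, and so entered only through Flag, with a ratio of 14.0 (3.65 to 118.9). The non-SMC element genes held few counts. NDNL2, now called NSMCE3 and named after its values were seen, had the most, with 56 Flag and 17 IgG counts and a ratio of 2.04 (1.17 to 3.75), above 1 beyond counting error but not past the threshold. NSMCE4A had a ratio of 0.657 (0.320 to 1.36) and EID3 of 1.01 (0.388 to 2.81), neither of which could be told from 1 at this depth, and NSMCE2 did not enter, with 8 Flag and 2 IgG counts.

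**Figure D4:**
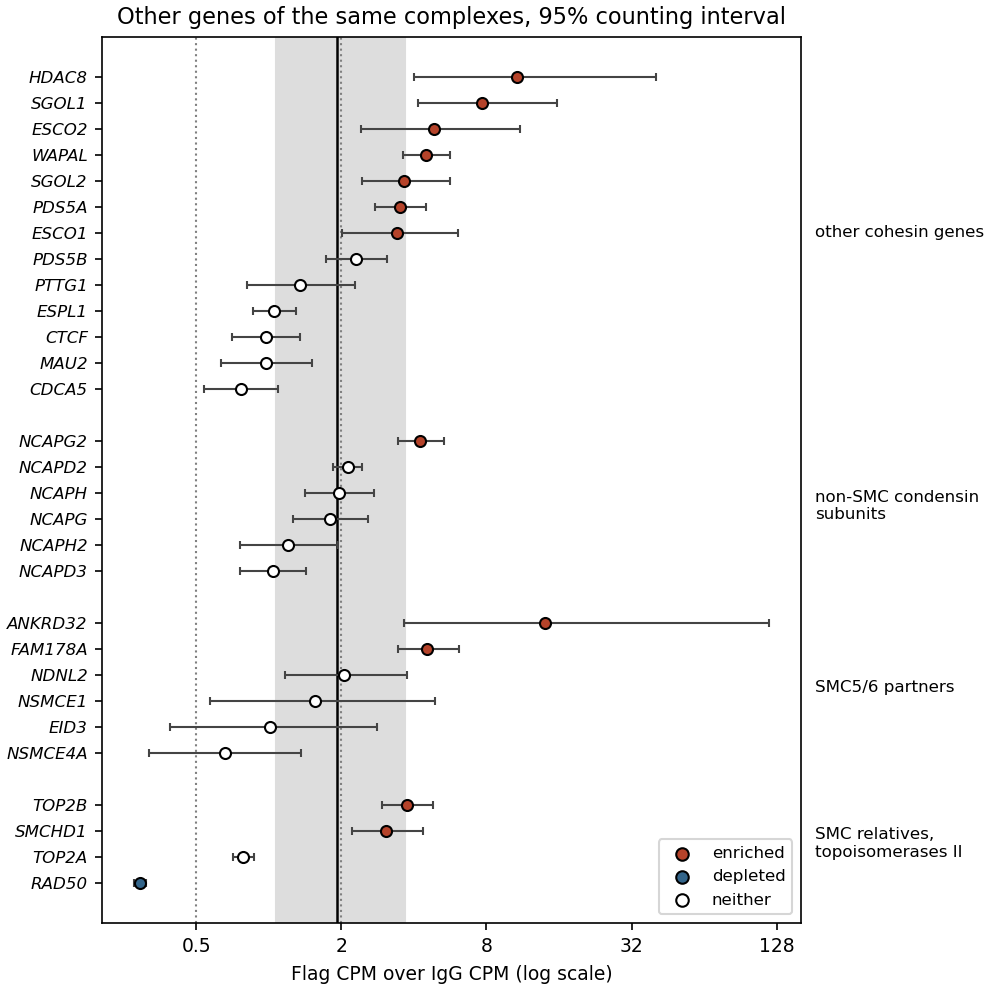
Ratio of Flag CPM to IgG CPM on a log scale for the other genes of the same complexes that entered and for 4 related genes, with exact 95% counting intervals. The black line, grey band and dotted lines are the median and quartiles of all genes and ratios of 2 and 0.5. RAD50 is the only depleted gene plotted.

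Of the 4 related genes 2 were enriched and 1 depleted, against 28.7% and 1.32% of all genes. RAD50, which encodes a relative of the SMC proteins with the same coiled-coil and ATPase layout, was depleted, as SMC3 and SMC2 were. The other SMC genes, SMC1A, SMC4, SMC5 and SMC6, were not called depleted. RAD50 ranked 59 by IgG counts, above SMC3, in the range where low ratios were frequent. It had 1838 Flag and 3904 IgG counts and a ratio of 0.292 (0.276 to 0.309), and was also depleted with TMM scaling. SMCHD1, which encodes a protein with an SMC hinge that acts in X inactivation, had a ratio of 3.08 (2.22 to 4.35). The topoisomerase II genes, whose enzymes work on the same chromosome axes, differed from each other: TOP2B had a ratio of 3.74 (2.95 to 4.79) and was enriched, and TOP2A one of 0.785 (0.710 to 0.868) and was not called. Both calls of enrichment, of SMCHD1 and TOP2B, were lost with TMM scaling.

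The genes nearest to the median of the 10, by Euclidean distance between log2 CPM values in the 2 libraries, were FRMD4A, URB1, PHIP, CCDC64 and DOCK1, at distances of 0.00937 to 0.0586. Their ratios lay between 1.78 and 1.87, which follows from the choice by distance. The median point lay at 72.0 CPM with Flag and 39.5 CPM with IgG. These medians were taken separately in each library, so the point does not match the members' median ratio of 1.40.

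The line was checked against markers. Of 9 renal markers 8 entered, among them PAX8 with 2532 Flag and 1049 IgG counts, and CA9 had 0 in both libraries. Among markers of other cells, PTPRC, CD3E, ALB and HBB had 0 in both libraries, VWF had 9 Flag and 0 IgG counts, and PDGFRB had 4 Flag and 2 IgG counts. COL1A1, which is not confined to fibroblasts, had 875 Flag and 637 IgG counts and made up nearly all of that list's summed level, 161.5 CPM with Flag and 187.2 CPM with IgG.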

How the data were processed

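The IgG and Flag libraries of ACHN cells with MEX3A-Flag were used. The authors deposited expected counts, so named in the file headers, which in RSEM output are estimated reads per gene and not normalized. The deposited TPM values, also so named, are in RSEM output made from counts over effective length. They so depend on the deposited length and effective length (other values, in bases). The deposited FPKM values were not used. The submitters' processing notes name RSEM, STAR, GRCh37 and hg19 with no role or version. The sources used here give no annotation release, read filter or strand setting. Reference gene coordinates were of another build and none are printed.

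Expected counts were rounded to whole numbers and divided by the library totals (CPM). A gene entered with 20 or more counts in the 2 libraries combined. Each ratio has an exact 95% Clopper-Pearson interval from the Flag share of both libraries' counts (scipy 1.17.1), and comparisons of 2 genes have the exact conditional interval of the odds ratio. Reads copied by PCR and carrying no molecular identifier are not independent, so intervals, and the floor of 3 counts for a count of 0, cover counting error only. Counts were called whole within 0.01. The calls were tested on simulated counts that held counting error alone. Such counts cannot show how the calls hold against variation between replicates or copied reads. Alternatives were scaling by TMM (edgeR 4.0.16) or by the median of ratios (DESeq2 1.42.0), trimmed totals (leaving out mitochondrial genes and the 10 most abundant genes of either library), TPM with a pseudocount of 1 or 0.1 (called by the ratio alone), thresholds of 1.5-fold and 4-fold, a 99% interval, at least 100 counts, no filter, and protein-coding genes only.

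The members and gene lists were chosen with earlier results of these data known. Named genes were the 10, their name-sharing rows, the called genes of each list and up to 2 at each end, and the 5 genes nearest to the members' median point. In the lists of the complexes, PDS5B, CTCF, ESPL1, PTTG1, NCAPG, NCAPH and NSMCE1 were tested and are counted but not described. Symbols of the lists that the files lack were the newer names WAPL, SGO1, SGO2, NSMCE3, SLF1 and SLF2, whose older names were found, and PECAM1. No protein sequences were used. 1 marker of other cells is not reported here.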

Additional observations from a re-analysis of the deposited data

How the results depend on the processing

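Calls for the members depended mostly on the scaling and on the fold threshold. Enriched members numbered 1 with TMM scaling, with the median of ratios and with intervals past 4-fold, and depleted members 0 past 4-fold. The members' median log2 ratio was -0.29 with TMM scaling and -0.30 with that by median of ratios. Without SMC3 it was 0.64 and without STAG2 0.33, alternatives chosen after seeing the data. Ratios that crossed 1 were those of SMC4 (0.910 with TMM, 0.903 by median of ratios), SMC6 (0.95 and 0.943), STAG1 (0.732 and 0.726, and 0.998 with trimmed totals) and NIPBL (0.613, 0.608 and 0.836 likewise, and 0.527 and 0.506 with TPM at pseudocounts of 1 and 0.1). None of these 4 was called with total counts. Each scaling shifts all log2 ratios equally, which by construction moves these values, and the deposited lengths move that of NIPBL with TPM.

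Among other cohesin genes 3 were enriched with TMM, 3 by median of ratios, 4 with trimmed totals and 1 past 4-fold, and the median log2 ratio was 0.99 with TMM scaling and 0.97 with that by median of ratios. Among non-SMC condensin subunits 0 were enriched with median-of-ratios scaling, 2 past 1.5-fold and 0 past 4-fold, and the median was 0.12 with TMM, 0.11 by median of ratios and 0.39 with TPM at a pseudocount of 1. Among SMC5/6 partners 1 was enriched with TMM, 1 by median of ratios and 0 past 4-fold.

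Over all genes 1293 were enriched and 662 depleted with TMM, 1269 and 675 by median of ratios, 924 and 24 past 4-fold, and 4780 and 712 with TPM at a pseudocount of 0.1. Depleted genes numbered 536 with TPM at a pseudocount of 1, 268 with trimmed totals, 298 past 1.5-fold and 218 with no filter. No paired analysis was possible because each group has 1 library. Depth limits the partners most, where counts as low as 2 in the IgG library give wide intervals.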
